A study of Mus musculus with 9 samples.

Results

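The subject is the set of 10 genes for the D cyclins, their kinases, their inhibitors and the retinoblastoma protein, in mouse neural stem cells whose cohesin subunit Rad21 was knocked down. The genes are Ccnd1, Ccnd2, Ccnd3, Cdk4, Cdk6, Cdkn1b, Cdkn2a, Cdkn2b, Cdkn2c and Rb1. They were chosen by symbol, with earlier results of these data known. They make up 10 of the 24503 genes in the count table. All 10 passed the filter on low counts that left 13560 genes to test. mRNA had been sequenced from cells infected with a hairpin against Rad21, shRad21_2 or shRad21_1, or with the non-targeting hairpin shNT. There were 9 libraries, 3 for each of the 3 groups. The cells of all groups, controls included, came from E13.5 embryonic cortex of mice that were wild type apart from a floxed Phf2 gene (Phf2flox/flox). They were enriched as neurospheres and grown on laminin with FGF and EGF, so the values describe a primary culture and not the tissue. How long after infection the cells were harvested is not stated. Nor do the labels say that the libraries of a group are separate cultures or animals, so a p-value here rests on a spread between libraries that may be technical.

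D cyclins bind and activate the kinases CDK4 and CDK6 in response to mitogens such as FGF and EGF. The active kinases phosphorylate RB, which then releases E2F transcription factors, and cells pass from G1 into S phase. The INK4 proteins p16 (from Cdkn2a), p15 (Cdkn2b) and p18 (Cdkn2c) bind CDK4 and CDK6 and keep them from the cyclins, while p27 (Cdkn1b) binds cyclin-CDK complexes and chiefly inhibits CDK2. In the embryonic cortex cyclin D1 and cyclin D2 are the main D cyclins of neural progenitors, and Polycomb proteins such as BMI1 are known to hold Cdkn2a down in neural stem cells. Rad21 encodes the kleisin subunit of cohesin, the ring complex that holds sister chromatids together and shapes chromatin loops.

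Promoter sequences are shown for Cdk6, for both starts of Cdkn2a and for Cdkn2b, the 3 genes with the largest differences described below, and for Cdk4, which encodes the other kinase that D cyclins bind. Each run is the 250 bases before a RefSeq transcript start (GRCm38.p6), 5′ to 3′ on the strand of the gene. Capitals mark matches, on either strand, to a set of motifs that a script searched: the E box CACGTG, the GC box GGGCGG, the E2F sites TTTCGCGC, TTTCCCGC and TTTGGCGC, the CRE TGACGTCA, the AP-1 site TGANTCA, the TATA box TATAAA and a CTCF core motif of 12 letters. A match on the strand opposite to the gene reads as its reverse complement, as CCGCCC does for the GC box in Cdk4. A match is a description of letters and no evidence of binding.
Cdk6, chr5:3343643-3343892, plus strand: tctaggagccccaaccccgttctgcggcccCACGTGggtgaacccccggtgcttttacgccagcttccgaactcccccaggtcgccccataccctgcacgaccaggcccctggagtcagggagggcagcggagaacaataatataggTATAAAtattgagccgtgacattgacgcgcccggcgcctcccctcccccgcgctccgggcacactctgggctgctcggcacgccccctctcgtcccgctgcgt
Cdkn2a, distal start, chr4:89294620-89294869, minus strand: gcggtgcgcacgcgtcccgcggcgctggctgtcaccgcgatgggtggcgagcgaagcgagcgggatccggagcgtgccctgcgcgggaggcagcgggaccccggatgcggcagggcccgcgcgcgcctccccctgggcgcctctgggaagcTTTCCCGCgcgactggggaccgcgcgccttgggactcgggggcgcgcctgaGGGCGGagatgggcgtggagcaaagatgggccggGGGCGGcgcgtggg
Cdkn2a, proximal start, chr4:89282193-89282442, minus strand: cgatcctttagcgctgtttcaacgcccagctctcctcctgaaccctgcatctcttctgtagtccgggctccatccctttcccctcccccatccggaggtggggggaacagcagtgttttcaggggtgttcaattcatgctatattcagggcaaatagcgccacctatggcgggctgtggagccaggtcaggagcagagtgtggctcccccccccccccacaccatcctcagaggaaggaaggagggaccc
Cdkn2b, chr4:89311033-89311282, minus strand: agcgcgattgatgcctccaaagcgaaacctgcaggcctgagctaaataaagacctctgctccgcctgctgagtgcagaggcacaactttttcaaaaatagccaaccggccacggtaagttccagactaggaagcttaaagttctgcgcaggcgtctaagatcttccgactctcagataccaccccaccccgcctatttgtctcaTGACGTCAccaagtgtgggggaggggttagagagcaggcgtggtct
Cdk4, chr10:127063285-127063534, plus strand: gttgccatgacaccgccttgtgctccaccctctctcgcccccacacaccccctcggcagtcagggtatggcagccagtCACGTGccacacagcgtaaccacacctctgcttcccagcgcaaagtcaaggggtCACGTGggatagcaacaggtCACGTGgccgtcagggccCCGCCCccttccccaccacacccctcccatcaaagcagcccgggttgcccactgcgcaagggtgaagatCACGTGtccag

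The Cdk6 run had 66.0% G and C, 22 CpG dinucleotides, 1 E box and 1 TATA box. Over all 32851 RefSeq promoters of this length the median was 52.4% G and C with 6 CpG, 6.02% held an E box and 12.37% held a TATAAA. The distal Cdkn2a start had the highest content of the 5 runs, 78.4% G and C with 40 CpG, and held 1 TTTCCCGC, found in 0.89% of all promoters, and 2 GC boxes, found in 32.74%. The proximal Cdkn2a start had 60.0% G and C, 7 CpG and no match, so the 2 starts of the same gene differ widely in CpG content. Cdkn2b had 53.6% G and C, 12 CpG and 1 CRE, found in 1.55% of all promoters. Cdk4 had 64.4% G and C, 13 CpG, 4 E boxes and 1 GC box. RefSeq promoter entries were matched for 7 of the 10 genes, 10 entries in all; Ccnd1, Ccnd2 and Rb1 had none. The CTCF core, which 2.07% of all promoters held, had no match in these 10 windows.

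Rad21 itself was at 82.0, 91.2 and 82.5 CPM (counts scaled to the library total, with TMM factors) in the shRad21_2 libraries, 187, 174 and 178 CPM in the shRad21_1 libraries and 531, 450 and 456 CPM in the shNT libraries. The 3 groups did not overlap, and shRad21_2 had the lowest level. The log2 fold change of Rad21 was -2.49 (SE 0.09, adjusted p = 2.83e-07 by edgeR's quasi-likelihood test) for shRad21_2 against shNT, and -1.41 (SE 0.09, adjusted p = 1.66e-04) for shRad21_1 against shNT. It was -1.08 (SE 0.09, adjusted p = 5.55e-05) for shRad21_2 against shRad21_1. Total counts were between 34780003 and 46644607 per library. Principal component 1 (60.16% of the variance) placed shRad21_1 replicate 1 at 12.58, apart from the other shRad21_1 libraries at -20.28 and -21.17 and toward shRad21_2 at 50.78 to 58.31; shNT lay at -48.27 to -39.84. Replicates 2 and 3 of shRad21_1, and replicates 2 and 3 of shNT, lay closer to each other than other pairs of a group did, and some alternatives summed these close pairs. Summed neural stem cell markers (Nes, Sox2, Pax6, Vim, Fabp7, Hes1, Hes5 and Slc1a3) were at 7242 to 8219 CPM in shRad21_2, 6861 to 8088 CPM in shRad21_1 and 8248 to 8617 CPM in shNT, and all 8 were detected in every group. Microglial markers reached at most 0.186 CPM in sum in any library, and none of the 5 passed the filter. The 6 neuron markers summed to 950 to 1080 CPM in shRad21_2, 900 to 1035 CPM in shRad21_1 and 761 to 905 CPM in shNT, and of the 5 tested, 1 was called higher and 2 lower in shRad21_2 against shNT. The 7 oligodendrocyte lineage markers summed to 2694 to 3086, 3089 to 3226 and 2750 to 2883 CPM in shRad21_2, shRad21_1 and shNT. The 4 endothelial markers summed to 1.63 to 2.73 CPM in shRad21_2, 2.29 to 3.02 CPM in shRad21_1 and 3.41 to 4.64 CPM in shNT. The 7 mesenchymal markers summed to 0.381 to 0.657 CPM in shRad21_2, 4.10 to 9.95 CPM in shRad21_1 and 2.42 to 5.03 CPM in shNT. In sum, neuron markers were thus higher in shRad21_2 than in shNT, with no overlap. Neural stem cell, endothelial and mesenchymal markers were lower in sum, with no overlap, as were astrocyte markers (109 to 123 against 391 to 464 CPM). The stem cell sums lay close, and of these 8 genes 2 were called higher (Nes and Pax6) and 2 lower (Fabp7 and Slc1a3). The part of these cell type markers in the results below was not tested.

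A gene was called where its adjusted p, Benjamini-Hochberg over all 13560 genes, was under 0.05. Under shRad21_2, 8 of the 10 genes were called against shNT, 3 higher and 5 lower, against a background of 43.6% called among all genes (21.1% higher, 22.5% lower). Cdk6 had by far the largest difference, followed by Cdkn2b and Cdkn2a, all lower. Ccnd2 and Cdkn2c were lower and Ccnd3, Cdkn1b and Cdk4 higher by smaller amounts. Under shRad21_1, 3 of the 10 were called against shNT, 0 higher and 3 lower (Cdk6, Cdkn2a and Cdkn2c), against a background of 9.82% called (4.19% higher, 5.63% lower). Between the hairpins, 5 of the 10 were called, Cdkn1b higher and Ccnd2, Cdk6, Cdkn2b and Rb1 lower in shRad21_2, against a background of 26.3% (11.9% higher, 14.4% lower). For the mean of both hairpins against shNT, 6 of the 10 were called, Ccnd3 and Cdkn1b higher and Cdk6, Cdkn2a, Cdkn2b and Cdkn2c lower, against a background of 33.4% (15.3% higher, 18.1% lower). The share called among the 10 lay above the share among all genes in each comparison. The 10 were picked by name with earlier results of these data known, so this difference has no test and describes a choice. The comparisons of both hairpins share the shNT libraries. With library totals and no composition factor, 38.0% of all genes called in shRad21_2 against shNT were higher, where TMM gave 48.4%, and between the hairpins the shares were 32.2% and 45.1%.

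Leaving out 1 library moved these counts, and the counts over all genes moved with them. For shRad21_1 against shNT, 1 of the 10 genes was called without shRad21_1 replicate 2 or 3 or shNT replicate 2 or 3, where the count over all genes was 790, 801, 467 and 460 in that order and 1331 with every library. For shRad21_2 against shNT, 5 of the 10 were called without shRad21_2 replicate 3 or shNT replicate 3, where 5203 and 4298 of all genes were, and 5917 with every library. Between the hairpins, 4 of the 10 were called without shRad21_1 replicate 2 or 3, where 2045 and 2055 of all genes were, and 3563 with every library. For the mean of both hairpins, 3 of the 10 were called without shNT replicate 2 or 3, where 2568 and 2541 of all genes were, and 4528 with every library. Without both first libraries, of shRad21_1 and of shNT, the counts were 6 for shRad21_2 against shNT, 2 for shRad21_1 against shNT and 7 between the hairpins.

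**Figure D1:**
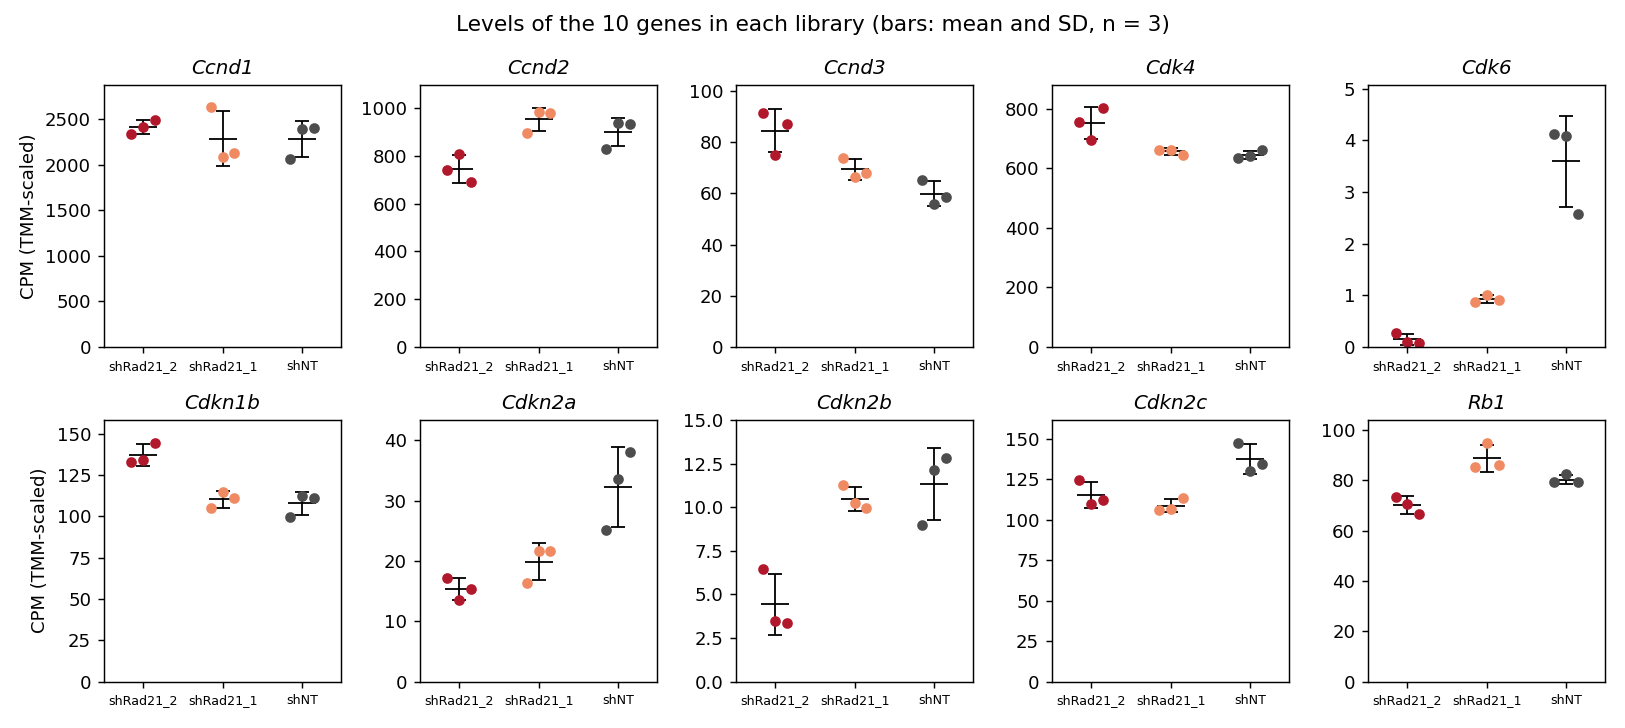
Level of each of the 10 genes in CPM on totals scaled by TMM, from 0, in the 3 libraries of shRad21_2, shRad21_1 and shNT from left to right, with the mean and SD (n = 3). Cdk6 was at 0.0856 to 0.266 CPM in shRad21_2 and 2.57 to 4.12 CPM in shNT, while Ccnd1 overlapped between all groups.

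**Figure D2:**
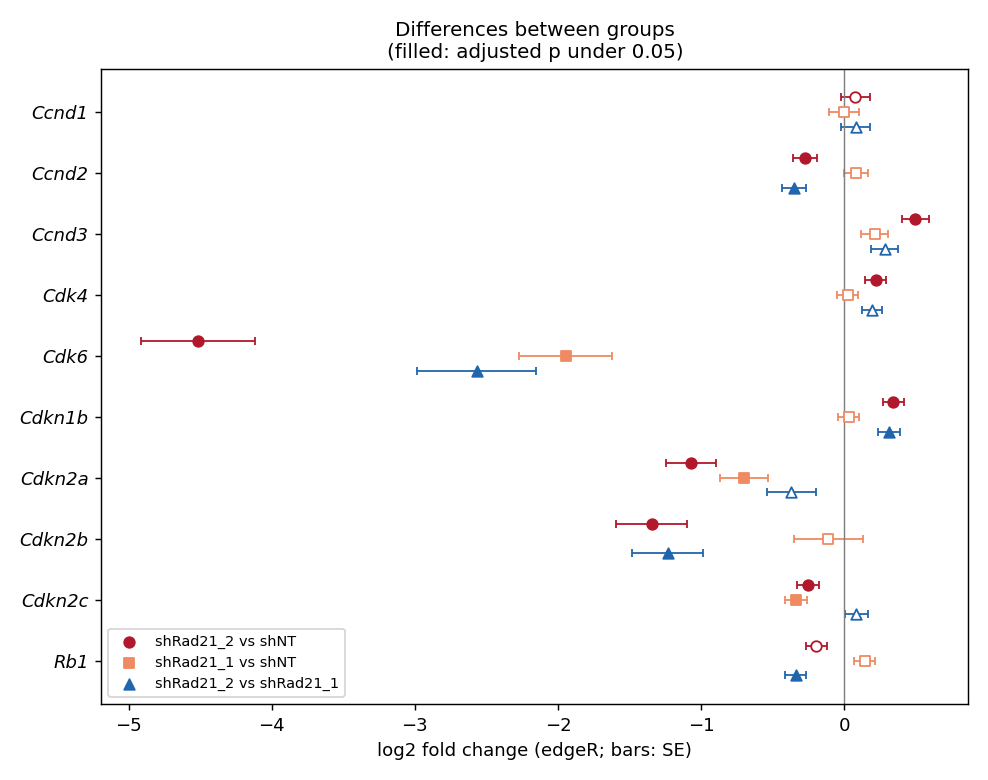
Log2 fold change of each gene with its SE for shRad21_2 against shNT, shRad21_1 against shNT and shRad21_2 against shRad21_1 (edgeR); filled symbols have an adjusted p under 0.05. Cdk6 lies farthest from 0 in each of the 3 comparisons.

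The libraries of shRad21_2 and shNT did not overlap in CPM for 9 of the 10 genes, all but Ccnd1, where 55.9% of all genes tested did not overlap. For shRad21_1 and shNT this held for 5 of the 10 (Ccnd3, Cdk6, Cdkn2a, Cdkn2c and Rb1), where it held for 40.2% of all genes. For shRad21_2 and shRad21_1 it held for 7 of the 10, where it held for 39.2% of all genes. All 6 knockdown libraries lay on one side of all shNT libraries for 4 of the 10 (Ccnd3, Cdk6, Cdkn2a and Cdkn2c), where this held for 26.8% of all genes. The median log2 fold change of the 10 genes was -0.22 for shRad21_2 and 0.01 for shRad21_1, each against shNT, where the median of all genes was 0.01 in both.

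Ccnd1, which encodes cyclin D1, lies on chr7 from 144929931 to 144939925 on the minus strand (ENSMUSG00000070348.5, mm10). It had the highest level per length of the 10 genes. It was at 2338, 2414 and 2488 CPM in shRad21_2, 2630, 2089 and 2130 CPM in shRad21_1 and 2058, 2388 and 2407 CPM in shNT. The highest single library was shRad21_1 replicate 1 and the lowest shNT replicate 1, and all groups overlapped. The log2 fold change was 0.08 (SE 0.10, adjusted p = 0.563, edgeR) for shRad21_2 and -0.0011 (SE 0.10, adjusted p = 0.997) for shRad21_1. Neither passed the test under any of 19 alternatives of processing, in which values ran from 0.00625 to 0.12 for shRad21_2 and from -0.18 to 0.09 for shRad21_1.

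Ccnd2, which encodes cyclin D2, lies on chr6 from 127125162 to 127152193 on the minus strand (ENSMUSG00000000184.12). It was at 740, 807 and 690 CPM in shRad21_2, 897, 982 and 977 CPM in shRad21_1 and 830, 936 and 933 CPM in shNT. All shRad21_2 libraries lay below all others, while shRad21_1 and shNT overlapped. Ccnd2 fell by 0.27 on the log2 scale (SE 0.08, adjusted p = 0.0256, edgeR) in shRad21_2 against shNT, and its value for shRad21_1 was 0.08 (SE 0.08, adjusted p = 0.589). The hairpins also differed from each other, by -0.35 on the log2 scale (SE 0.08, adjusted p = 0.0138, edgeR). Against shNT, Ccnd2 missed the threshold without shNT replicate 2 (-0.24) or 3 (-0.24), or shRad21_2 replicate 1 (-0.26) or 3 (-0.22), with adjusted p from 0.00973 to 0.143 over 19 alternatives. The call between the hairpins was lost without shRad21_1 replicate 2 (-0.33) or 3 (-0.33), with adjusted p from 0.0011 to 0.100.

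Ccnd3, which encodes cyclin D3, lies on chr17 from 47505051 to 47599691 on the plus strand (ENSMUSG00000034165.16). It was at 91.3, 75.0 and 87.1 CPM in shRad21_2, 74.0, 66.4 and 67.8 CPM in shRad21_1 and 65.3, 55.8 and 58.4 CPM in shNT. The 3 groups did not overlap and were highest in shRad21_2 and lowest in shNT. Ccnd3 rose by 0.50 on the log2 scale (SE 0.10, adjusted p = 0.00243, edgeR) in shRad21_2 against shNT, and this call held in all 19 alternatives, with values from 0.42 to 0.58. Its log2 fold change for shRad21_1 was 0.21 (SE 0.10, adjusted p = 0.187), which missed the threshold, and the mean of both hairpins rose by 0.36 (SE 0.08, adjusted p = 0.00961). The call of the mean was lost without shNT replicate 2 or 3, where leaving out single libraries gave values from 0.31 to 0.42 and adjusted p over 18 alternatives ran from 0.0011 to 0.0865. Between the hairpins it was 0.28 (SE 0.10, adjusted p = 0.0518), a call without shRad21_1 replicate 1 (0.33) or shRad21_2 replicate 2 (0.36) and with the replicate number as a block (0.28, adjusted p = 0.0213), in a range of adjusted p from 0.0191 to 0.216 over 19 alternatives. The exons of Ccnd3 share 361 bases with those of Bysl on the other strand, a gene for a ribosome biogenesis factor. Bysl rose by 0.54 (SE 0.08, adjusted p = 4.61e-04) in shRad21_2 against shNT, and as nothing read here says whether counting used strand, reads from the shared bases cannot be told apart.

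Per kilobase of merged exon, the 3 D cyclins together were at 773, 796 and 804 CPM in shRad21_2, 867, 732 and 743 CPM in shRad21_1 and 701, 801 and 807 CPM in shNT. The sums of all groups overlapped. Ccnd1 made up 80.9% to 82.8% of the sum in shRad21_2, 76.3% to 81.1% in shRad21_1 and 78.5% to 79.8% in shNT. The share of Ccnd2 was 12.8% to 15.1% in shRad21_2, 15.4% to 20.0% in shRad21_1 and 17.2% to 17.7% in shNT. The share of Ccnd3 was 3.85% to 4.83% in shRad21_2, 3.49% to 3.73% in shRad21_1 and 2.85% to 3.81% in shNT. Ccnd1 was thus the main D cyclin mRNA of this culture in every library, and the Ccnd2 share of shRad21_2 lay below that of all other libraries. These shares are descriptions, with no test.

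**Figure D3:**
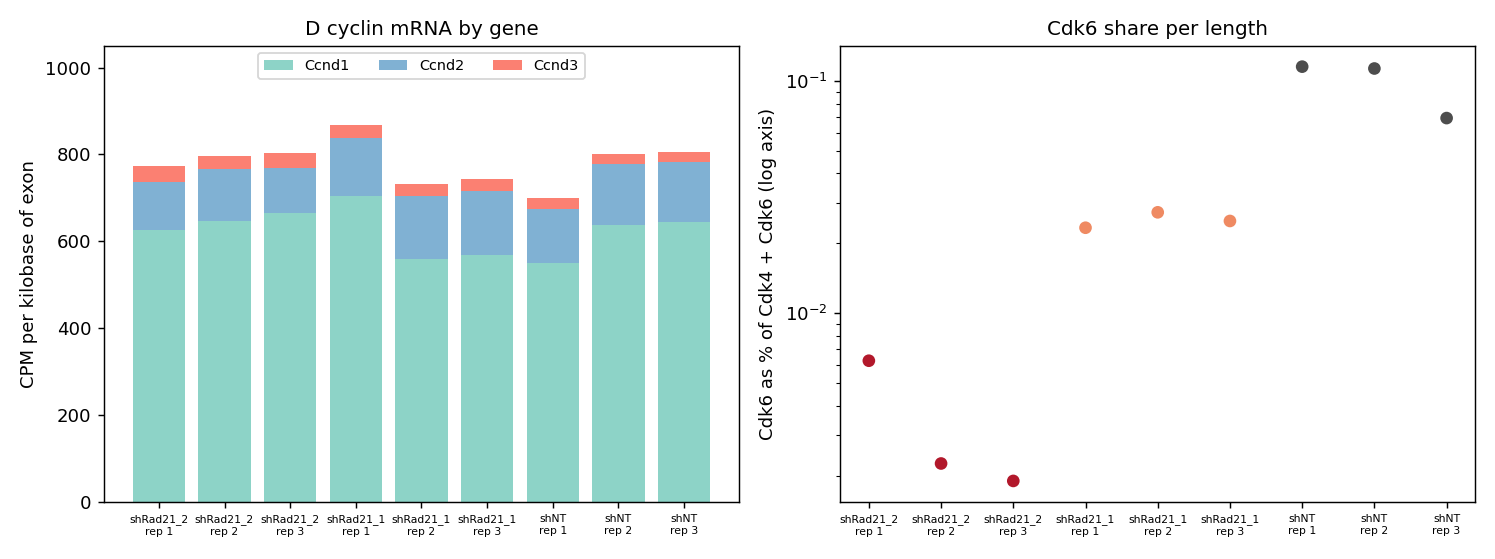
Left, the level of each D cyclin in CPM per kilobase of exon, stacked, in each library of shRad21_2, shRad21_1 and shNT. Right, Cdk6 as a percent of the sum of Cdk4 and Cdk6 per kilobase, on a log axis; it lies between 0.00190% and 0.00625% in shRad21_2, 0.0234% and 0.0272% in shRad21_1 and 0.0693% and 0.115% in shNT.

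Cdk6, one of the kinases that D cyclins activate, lies on chr5 from 3341485 to 3531008 on the plus strand (ENSMUSG00000040274.11). Its counts were 12, 3 and 3 in shRad21_2, 32, 38 and 34 in shRad21_1 and 150, 173 and 116 in shNT. In CPM these were 0.266, 0.0880 and 0.0856 in shRad21_2, 0.870, 1.01 and 0.904 in shRad21_1 and 4.12, 4.08 and 2.57 in shNT. The 3 groups did not overlap and followed the order of the Rad21 levels. The summed counts, 18 in shRad21_2 and 439 in shNT, gave a ratio of 0.0444 (exact 95% interval 0.0261 to 0.0710, which covers counting error only), 22.5-fold lower. For shRad21_1, with 104 counts, the ratio to shNT was 0.262 (0.210 to 0.325), 3.81-fold lower. Replicates 2 and 3 of shRad21_2 were at 3 counts, the limit that a count of 0 allows, so the size of this difference is set by few reads.

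The log2 fold change of Cdk6 was -4.51 (SE 0.40, adjusted p = 3.04e-05, edgeR) for shRad21_2 against shNT and -1.95 (SE 0.33, adjusted p = 0.00668) for shRad21_1 against shNT. It was -2.57 (SE 0.42, adjusted p = 0.00233) for shRad21_2 against shRad21_1. Without shRad21_2 replicate 1, which had the most counts of its group, the values of Cdk6 were -5.32 against shNT and -3.37 against shRad21_1. Cdk6 was called in all 19 alternatives for shRad21_2 against shNT and between the hairpins. For shRad21_1 against shNT the call of Cdk6 was lost with the close pairs of libraries summed (-2.01, adjusted p = 0.0702), in a range of adjusted p from 1.45e-06 to 0.0702. In bulk samples, fewer cells with a transcript and less of it per cell cannot be told apart. The summed level of 6 astrocyte markers was at 109 to 123 CPM in shRad21_2, 147 to 368.5 CPM in shRad21_1 and 391 to 464 CPM in shNT. Against shNT, 5 of the 6 (Gfap, Aqp4, Aldh1l1, S100b and Aldoc) fell in shRad21_2. In shRad21_1 0 of the 6 were called, while Cdk6 was called there, at 0.870 to 1.01 CPM. None of these markers was at 0 in a whole group. Their part in the result was not tested.

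Cdk4, the other kinase of the D cyclins, lies on chr10 from 127063534 to 127067920 on the plus strand (ENSMUSG00000006728.12). It was at 757, 695 and 804 CPM in shRad21_2, 663, 663 and 645 CPM in shRad21_1 and 636, 641 and 661 CPM in shNT. All shRad21_2 libraries lay above all others, and shRad21_1 and shNT overlapped. Cdk4 rose by 0.22 on the log2 scale (SE 0.07, adjusted p = 0.0301, edgeR) in shRad21_2 against shNT, a call lost in 12 of 19 alternatives, among them leaving out any shNT library, shRad21_1 replicate 2 or 3, or shRad21_2 replicate 1 or 3. Values of Cdk4 without a library ran from 0.17 to 0.28, and adjusted p over the 19 from 0.00846 to 0.144. For shRad21_1 it was 0.02 (SE 0.07, adjusted p = 0.868). Per kilobase of exon, Cdk4 averaged 366 ± 26.5 CPM in shRad21_2, 320 ± 5.24 CPM in shRad21_1 and 315 ± 6.33 CPM in shNT (SD, n = 3 each). Cdk6 on the same scale averaged 0.0127 ± 0.00896, 0.0806 ± 0.00653 and 0.312 ± 0.0768 CPM in shRad21_2, shRad21_1 and shNT. Cdk6 was therefore at most 0.115% of the sum of Cdk4 and Cdk6 per kilobase in any library, and nearly all CDK4/6 kinase mRNA of this culture was Cdk4.

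Cdkn2a encodes p16Ink4a and p19Arf from alternative first exons, and lies on chr4 from 89274471 to 89294653 on the minus strand (ENSMUSG00000044303.6). One transcript starts in an exon of 207 bases from 89281986 to 89282192 and the other in an exon of 320 bases from 89294334 to 89294653, and both use the exon from 89276645 to 89276985. The distal first exon is that of p19Arf and the proximal one that of p16Ink4a, and counts per gene do not separate the products. Cdkn2a was at 17.2, 13.49 and 15.4 CPM in shRad21_2, 16.4, 21.7 and 21.6 CPM in shRad21_1 and 25.1, 33.7 and 38.2 CPM in shNT. Every knockdown library lay below every shNT library, while shRad21_2 and shRad21_1 overlapped. Cdkn2a fell by 1.07 on the log2 scale (SE 0.17, adjusted p = 9.19e-04, edgeR) in shRad21_2 against shNT, with values from -1.22 to -0.93 and a call in all 19 alternatives. It fell by 0.70 (SE 0.17, adjusted p = 0.0300) in shRad21_1 against shNT. Cdkn2a missed the threshold in shRad21_1 when shNT replicate 2 (-0.67) or 3 (-0.56), or shRad21_1 replicate 2 (-0.77) or 3 (-0.76), was left out, with adjusted p from 0.00191 to 0.180 over 19 alternatives. Between the hairpins Cdkn2a was at -0.37 (SE 0.17, adjusted p = 0.137), which passed without shRad21_1 replicate 1 (-0.49, adjusted p = 0.0447), in a range of adjusted p from 0.0128 to 0.345.

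Cdkn2b, which encodes p15Ink4b, lies 11.65 kb from Cdkn2a on the same strand, on chr4 from 89306299 to 89311039 (ENSMUSG00000073802.5). It was at 6.47, 3.49 and 3.34 CPM in shRad21_2, 11.3, 10.3 and 9.95 CPM in shRad21_1 and 8.96, 12.1 and 12.8 CPM in shNT. All shRad21_2 libraries lay below all others, replicate 1 being the highest of them, and shRad21_1 and shNT overlapped. Cdkn2b fell by 1.34 (SE 0.25, adjusted p = 0.00194, edgeR) in shRad21_2 against shNT and was at -0.11 (SE 0.24, adjusted p = 0.819) for shRad21_1. Cdkn2b also differed between the hairpins, at -1.23 (SE 0.25, adjusted p = 0.00650). Both calls of Cdkn2b held in all 19 alternatives, and without shRad21_2 replicate 1 its value against shNT was -1.73. In shRad21_1 Cdkn2a was called and its neighbour Cdkn2b was not; the difference between these genes was not tested. The astrocyte markers given beside Cdk6, and the endothelial and mesenchymal sums, were also lowest in shRad21_2, and their part in the Cdkn2a and Cdkn2b results was not tested.

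Cdkn2c, which encodes p18Ink4c, lies on chr4 from 109660876 to 109667189 on the minus strand (ENSMUSG00000028551.14). It was at 125, 110 and 112 CPM in shRad21_2, 106, 107 and 114 CPM in shRad21_1 and 148, 130 and 135 CPM in shNT. All knockdown libraries lay below all shNT libraries, and the hairpins overlapped. Cdkn2c fell by 0.25 (SE 0.08, adjusted p = 0.0266, edgeR) in shRad21_2 and by 0.34 (SE 0.08, adjusted p = 0.0260) in shRad21_1, each against shNT. The mean of both hairpins fell by 0.29 (SE 0.07, adjusted p = 0.00852). The call for shRad21_2 was lost without shNT replicate 1 (-0.20) or 3 (-0.27) or shRad21_2 replicate 2 (-0.21) or 3 (-0.23), with adjusted p from 0.00826 to 0.0927. In shRad21_1 it missed the threshold when any shNT library (-0.28, -0.38 and -0.35 for replicates 1, 2 and 3), or shRad21_1 replicate 2 (-0.32) or 3 (-0.37), was left out, with adjusted p from 0.00298 to 0.172.

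Cdkn2a, Cdkn2b and Cdkn2c summed per kilobase of exon were at 65.8, 54.8 and 57.4 CPM in shRad21_2. The sums were 61.6, 65.6 and 68.0 CPM in shRad21_1 and 82.9, 86.0 and 92.0 CPM in shNT. They leave out the INK4 gene Cdkn2d, which is outside the chosen set and is given further below. Counts of Cdkn2a also do not separate its Arf transcript, so these sums and shares do not measure all INK4 mRNA or INK4 mRNA alone. Every knockdown library had a lower sum than every shNT library. Cdkn2c made up 70.6%, 74.4% and 72.9% of this sum in shRad21_2, 64.2%, 60.5% and 62.4% in shRad21_1 and 66.4%, 56.4% and 54.5% in shNT. Cdkn2c was thus the largest part of this sum in all 9 libraries, and its share was highest in shRad21_2.

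Cdkn1b, which encodes p27Kip1, was the inhibitor of the 10 genes that was higher in shRad21_2. It lies on chr6 from 134920401 to 134925513 on the plus strand (ENSMUSG00000003031.14). It was at 133, 134 and 145 CPM in shRad21_2, 105, 115 and 111 CPM in shRad21_1 and 99.9, 113 and 111 CPM in shNT. All shRad21_2 libraries lay above all others, and shRad21_1 and shNT overlapped. Cdkn1b rose by 0.34 (SE 0.08, adjusted p = 0.00462, edgeR) in shRad21_2 against shNT, in all 19 alternatives, with values from 0.27 to 0.38. It was 0.03 (SE 0.08, adjusted p = 0.840) for shRad21_1. The difference between the hairpins was 0.31 (SE 0.08, adjusted p = 0.0137), lost with the close pairs summed (0.33, adjusted p = 0.0822; range from 0.00153 to 0.0822). The mean of both hairpins was called at 0.19 (SE 0.07, adjusted p = 0.0496), and 11 of 18 alternatives lost that call, among them leaving out any shNT library, shRad21_1 replicate 2 or 3 or shRad21_2 replicate 3, with values without a library from 0.14 to 0.22 and adjusted p from 0.0322 to 0.187.

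Rb1, which encodes the RB pocket protein, lies on chr14 from 73183673 to 73325822 on the minus strand (ENSMUSG00000022105.6). It was at 73.5, 70.6 and 66.4 CPM in shRad21_2, 85.4, 95.0 and 86.1 CPM in shRad21_1 and 79.2, 82.4 and 79.4 CPM in shNT. The 3 groups did not overlap, with shRad21_2 below and shRad21_1 above shNT. Neither passed the test: the log2 fold change was -0.19 (SE 0.07, adjusted p = 0.0521, edgeR) for shRad21_2 and 0.14 (SE 0.07, adjusted p = 0.238) for shRad21_1. The direct difference between the hairpins was called, at -0.34 (SE 0.07, adjusted p = 0.00847), and held in 18 of 19 alternatives. Against shNT, shRad21_2 passed without shRad21_1 replicate 1 (-0.19) or shRad21_2 replicate 1 (-0.23) and in 3 further alternatives, with adjusted p from 0.0158 to 0.177 over 19.

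In shRad21_2, Cdkn2a stood at 13.1 ± 1.59 CPM per kilobase of exon, below Ccnd3 (34.5 ± 3.45), Cdkn1b (30.1 ± 1.42) and Rb1 (15.1 ± 0.766), although its libraries overlapped those of Rb1 (SD, n = 3). In shRad21_1 it stood at 17.0 ± 2.59, also overlapping Rb1 (19.1 ± 1.15). In shNT the order of mean levels on this scale was Ccnd1 (611 ± 52.4), Cdk4, Ccnd2 (134 ± 8.98), Cdkn2c (51.2 ± 3.39), Cdkn2a (27.6 ± 5.67), Ccnd3 (24.5 ± 2.01), Cdkn1b (23.7 ± 1.53), Rb1 (17.3 ± 0.382), Cdkn2b (8.14 ± 1.49) and Cdk6. There the libraries of Cdkn2a, Ccnd3 and Cdkn1b overlapped.

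By Pearson's r of log2 CPM over the 9 libraries, which share 3 groups, the genes most like Cdk6 were Wnt4 (r = 0.991) and Sorl1 (0.990). Those most like Cdkn2a were Trappc12 (0.995) and Osbpl9 (0.991), and those most like Cdkn2b were Btbd11 (0.982) and Arhgap1 (0.981). Cdkn2c was closest to Siae (0.966) and Slc43a3 (0.964). Ccnd2 was closest to Jag1 (0.983), a Notch ligand, and Fn1 (0.975), and Ccnd3 to Csrp2bp (0.992) and Tmem97 (0.986). Cdk4 was closest to Wdr8 (0.990) and Psmd7 (0.989), Cdkn1b to Rnf220 (0.979) and H2-D1 (0.976), Rb1 to Sc5d (0.971) and Wnk2 (0.959), and Ccnd1 to Ctdsp2 (0.945) and Snx9 (0.944). These are the highest values among all genes tested and so describe a choice.

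The nearest tested gene on each side of each of the 10 gave 18 further genes. Of these, 10 were called in shRad21_2 against shNT, 4 higher and 6 lower, where 43.6% of all genes were called, and 1 was called in shRad21_1, where 9.82% were. Called lower in shRad21_2 were Ano1 next to Ccnd1 (-3.92), Agap2 next to Cdk4 (-0.61) and Apold1 next to Cdkn1b (-0.93). Rnf11 next to Cdkn2c (-0.57) and Fndc3a next to Rb1 (-0.69) were also called lower, and Taf8 next to Ccnd3 higher (0.36). Alternatives were not run for these genes, and the others called are given below. At the INK4 locus, Mtap, which encodes an enzyme of methionine salvage and lies 93.39 kb from Cdkn2a, rose by 0.98 (SE 0.18, adjusted p = 0.00177, edgeR) in shRad21_2 and was at 0.63 (SE 0.18, adjusted p = 0.0515) in shRad21_1. Mtap passed in shRad21_1 with the replicate number as a block (0.61, adjusted p = 0.0436, in a range from 0.00761 to 0.183 over 19 alternatives) and without shRad21_1 replicate 2 (0.74) or 3 (0.74), and was at 0.37 without shRad21_1 replicate 1. Mtap and Cdkn2a thus had values of opposite sign. Next to Cdk6, Fam133b at 12.82 kb rose by 0.42 (SE 0.11, adjusted p = 0.0131) and Gm15772 at 104.62 kb by 0.48 (SE 0.11, adjusted p = 0.00562) in shRad21_2, while Cdk6 fell; the call of Fam133b was lost without shNT replicate 2 (0.34). Next to Rb1, Itm2b fell under both hairpins, by 0.50 (SE 0.09, adjusted p = 0.00152) in shRad21_2 and by 0.33 (SE 0.09, adjusted p = 0.0426) in shRad21_1. The second call of Itm2b was lost with the replicate block (-0.33, adjusted p = 0.0572, in a range from 0.0101 to 0.27), without any 1 library of shRad21_1 or shNT (-0.36 to -0.29) and without shRad21_2 replicate 3 (-0.33).

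Other genes of the pathway were taken from lists, and each count of a list is to be read against all genes, of which 43.6% were called in shRad21_2 (21.1% higher, 22.5% lower) and 9.82% in shRad21_1, with a median log2 fold change of 0.01 in both. Among 3 CDK inhibitors outside the 10, Cdkn1c, which encodes p57Kip2, was at 13.3 ± 2.15 CPM in shRad21_2, 4.99 ± 1.21 CPM in shRad21_1 and 3.29 ± 0.291 CPM in shNT (SD, n = 3 each). Cdkn1c rose by 2.01 (SE 0.20, adjusted p = 6.07e-05, edgeR) in shRad21_2 and was at 0.60 (SE 0.20, adjusted p = 0.0905) in shRad21_1. In shRad21_1 Cdkn1c passed without replicate 1 of shRad21_1 (0.79). The sum of the neuron markers was also higher in shRad21_2 than in shNT, but the genes did not move together. Of the 5 tested, Map2 was called higher and Dcx and Rbfox3 lower, with a median log2 fold change of -0.23. Their part in the Cdkn1b and Cdkn1c values was not tested. Cdkn1a, the p21 gene and a target of p53, averaged 307 ± 59.1 CPM in shRad21_2, 435 ± 159 CPM in shRad21_1 and 286 ± 20.1 CPM in shNT and was not called under either hairpin (0.10 and 0.60, adjusted p = 0.736 and 0.113). The value of Cdkn1a in shRad21_1 rests on replicate 1, at 618 CPM where the other shRad21_1 libraries had 342 and 345 CPM, and was 0.26 without it. Cdkn2d, the p19Ink4d gene, was at -0.12 (adjusted p = 0.482) in shRad21_2. The other pocket proteins Rbl1 (-0.08, adjusted p = 0.519) and Rbl2 (-0.10, adjusted p = 0.326) were not called in shRad21_2, by edgeR, DESeq2 or limma-voom, and 0 of them had an unadjusted p under 0.05 by edgeR.

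Of 10 E2F and DP factors, 4 rose in shRad21_2 against shNT (E2f1, E2f3, E2f4 and Tfdp1) and 2 fell (E2f5 and Tfdp2), where 21.1% of all genes were called higher and 22.5% lower, with a median log2 fold change of 0.29. E2f1, an activator of S phase genes, was at 65.6 ± 6.51 CPM in shRad21_2, 44.2 ± 4.91 CPM in shRad21_1 and 45.8 ± 1.19 CPM in shNT, a change of 0.52 (SE 0.10, adjusted p = 0.00293, edgeR) in shRad21_2. E2f3 rose by 0.68 (SE 0.10, adjusted p = 4.21e-04) and E2f4 by 0.68 (SE 0.10, adjusted p = 6.08e-04), while E2f5 fell by 0.61 (SE 0.14, adjusted p = 0.00742). The call of Tfdp2 (-0.22, adjusted p = 0.0499) held in 6 of 19 alternatives, and Tfdp1 rose by 0.39 (SE 0.08, adjusted p = 0.00324). E2f2, E2f6, E2f7 and E2f8 were not called in shRad21_2, at 0.39, 0.03, 0.12 and 0.19, though E2f2 passed without shRad21_1 replicate 1 (0.39). E2f6 was lower in shRad21_2 than in shRad21_1 (-0.42, adjusted p = 0.00747, edgeR). In shRad21_1, E2f3 (0.36, adjusted p = 0.0421) and E2f6 (0.45, adjusted p = 0.0113) were called. E2f3 lost that call without any 1 library of shNT or shRad21_1 or shRad21_2 replicate 3 (0.35 to 0.37), and E2f6 without shNT replicate 2 (0.41) or 3 (0.42).

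Cyclin E and CDK2 act after CDK4/6 in G1. Of 4 genes of this list, 2 rose in shRad21_2 and 2 in shRad21_1, each against shNT, where 43.6% and 9.82% of all genes were called. Cdc25a, the phosphatase that activates CDK2, was at 90.6 ± 2.80 CPM in shRad21_2, 65.2 ± 0.728 CPM in shRad21_1 and 48.5 ± 4.56 CPM in shNT (SD, n = 3 each). Cdc25a rose by 0.90 (SE 0.08, adjusted p = 2.86e-05, edgeR) in shRad21_2 and by 0.43 (SE 0.08, adjusted p = 0.00981) in shRad21_1, the second lost without shNT replicate 2 (0.37) or 3 (0.41). Ccne1 rose by 0.30 (SE 0.08, adjusted p = 0.0154) in shRad21_2, lost without shNT replicate 3 (0.26), and by 0.35 (SE 0.08, adjusted p = 0.0282) in shRad21_1, which missed the threshold with shNT replicate 2 (0.36) or 3 (0.31) left out, or shRad21_1 replicate 2 (0.35) or 3 (0.32). Cdk2 was at 0.23 (SE 0.09, adjusted p = 0.0509) and Ccne2 at 0.27 (SE 0.13, adjusted p = 0.127) in shRad21_2, and both passed without shRad21_1 replicate 1 (0.23 and 0.27). Cdk2 also passed without shNT replicate 1 (0.29) or shRad21_2 replicate 1 (0.27).

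Of 11 regulators of D cyclin or INK4 transcription, Myc, Bmi1, Ezh2 and Ets1 rose and Id1 fell in shRad21_2, where 43.6% of all genes were called, with a median of 0.20. Ets1 missed the threshold without shNT replicate 1 (0.38). In shRad21_1, Myc and Ets1 rose. Myc, a transcription factor that acts on D cyclin and Cdk4 genes, was at 325 ± 32.6 CPM in shRad21_2, 260 ± 47.9 CPM in shRad21_1 and 158 ± 26.7 CPM in shNT. It rose by 1.04 (SE 0.16, adjusted p = 6.85e-04, edgeR) in shRad21_2 and by 0.72 (SE 0.16, adjusted p = 0.0203) in shRad21_1, which missed the threshold with shNT replicate 1 (0.59) or 3 (0.78) left out, or shRad21_1 replicate 2 (0.63) or 3 (0.66). The Polycomb genes Bmi1, at 283 ± 35.2, 234 ± 19.8 and 185 ± 6.82 CPM in shRad21_2, shRad21_1 and shNT, and Ezh2 rose by 0.62 (SE 0.10, adjusted p = 0.00102) and 0.51 (SE 0.09, adjusted p = 0.00177) in shRad21_2. Mycn (-0.63, adjusted p = 0.115) and the Polycomb gene Cbx7 (0.10, adjusted p = 0.696) were not called, though Mycn passed without shRad21_1 replicate 1 (-0.63). Trp53, the p53 gene downstream of p19Arf, rose by 0.78 (SE 0.10, adjusted p = 2.29e-04) in shRad21_2, and Mdm2 (0.18) and Mdm4 (0.17) were not called.

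Of 11 tested genes for the degradation of p27 and cyclin D, 4 rose in shRad21_2 (Skp2, Cks1b, Cul1 and Fbxo31) and 0 fell, where 43.6% of all genes were called, with a median of 0.19. Skp2, which targets p27 for degradation, rose by 0.88 (SE 0.20, adjusted p = 0.00526, edgeR), its cofactor Cks1b by 0.60 (SE 0.12, adjusted p = 0.00264) and Fbxo31, an F-box gene for cyclin D1, by 0.44 (SE 0.08, adjusted p = 0.00140). Ambra1, the adaptor of CUL4 for D cyclins, was at 0.19 (SE 0.09, adjusted p = 0.122) and passed without shRad21_2 replicate 3 (0.29). Of 7 MuvB and DREAM genes, Lin9, Mybl2 and Foxm1 rose and 0 fell. The share called was near the 43.6% of all genes called in either direction, but 21.1% of all genes were called higher and 22.5% lower. Without shNT replicate 3 the count was 1, with Mybl2 (0.32) and Foxm1 (0.32) lost, and Foxm1 was also lost without shNT replicate 2 (0.29).

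Of 17 S phase targets of E2F, 4 rose in shRad21_2 (Mcm7, Cdt1, Tk1 and Rrm2) and 0 fell, with a median of 0.22. The share that rose was near the 21.1% of all genes called higher, where 22.5% were called lower and 43.6% in either direction. Cdt1 missed the threshold without any 1 library of shRad21_2 or shNT (0.34 to 0.44). Tk1, the thymidine kinase gene, rose by 0.63 (SE 0.11, adjusted p = 0.00128, edgeR). Mcm2 (0.13), Mcm5 (0.22), Pcna (0.22), Ccna2 (0.11) and Cdc6 (0.28) were not called. Some passed without 1 library: Mcm5 without shNT replicate 1 (0.28), shRad21_1 replicate 1 (0.22) or shRad21_2 replicate 2 (0.27), Pcna without shRad21_2 replicate 1 (0.34), Ccna2 without shNT replicate 1 (0.25) and Cdc6 without shRad21_1 replicate 1 (0.28). The count was 7 without shNT replicate 1 and 8 without shRad21_1 replicate 1. For shRad21_2 against shRad21_1, 8 of the 17 were called higher and 0 lower, where 11.9% of all genes were called higher and 14.4% lower. Alternatives were not run for that count. Of 8 proliferation markers, Cdk1 (0.36, SE 0.13, adjusted p = 0.0473, edgeR), Bub1 and Aurkb rose in shRad21_2 against shNT, where 43.6% of all genes were called. Mki67 (0.34), Top2a (0.03) and Ccnb1 (0.28) were not called. Cdk1 was called in 10 of 19 alternatives, and Bub1 was lost without shNT replicate 2 (0.36) or 3 (0.33). Mki67 passed without shRad21_2 replicate 3 (0.53) and Ccnb1 without shNT replicate 1 (0.43) or shRad21_1 replicate 1 (0.28). The count of proliferation markers was 1 without shNT replicate 2 or 3, 6 without shNT replicate 1 and 5 without shRad21_1 replicate 1. In shRad21_1 no gene of either list was called by edgeR, DESeq2 or limma-voom, and 0 had an unadjusted p under 0.05 by edgeR. In shRad21_1 edgeR also called 0 of the CDK inhibitors outside the 10 (unadjusted p under 0.05 for 2, DESeq2 2, limma-voom 0), 0 of the pocket proteins (1, 0 and 0), 0 of the MuvB and DREAM genes (0, 0 and 0), 0 of the ARF and p53 genes (2, 0 and 0) and 0 of the degradation genes (1, 0 and 0).

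**Figure D4:**
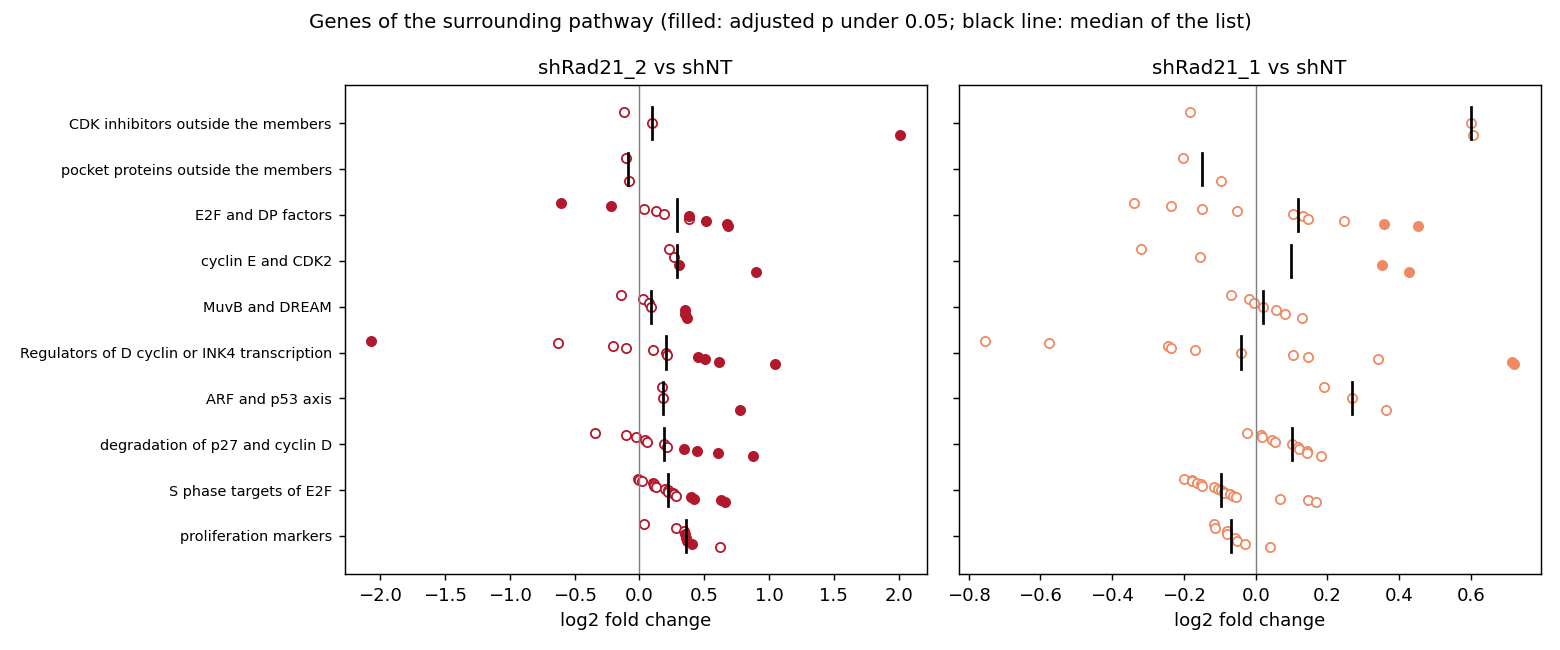
Log2 fold change of each tested gene in 10 lists of the surrounding pathway, for shRad21_2 against shNT (left) and shRad21_1 against shNT (right); filled points have an adjusted p under 0.05 and the black line is the median of the list. The horizontal scales differ between the panels. Cdkn1c at 2.01 and Id1 lie farthest from 0 on the left.

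Some of the 10 genes share exon bases with a gene on the other strand. Tspan31 shares 641 bases with Cdk4 and was at -0.09 (adjusted p = 0.457, edgeR) in shRad21_2 against shNT, while Cdk4 rose. Rcbtb2 shares 105 bases with Rb1 and fell by 0.28 (adjusted p = 0.0187) in shRad21_2 and by 0.40 (adjusted p = 0.0151) in shRad21_1. The calls of Rcbtb2 were lost without shNT replicate 1 (-0.25) or 3 (-0.29) in shRad21_2, and in shRad21_1 without shRad21_1 replicate 2 (-0.37) or 3 (-0.35) or shNT replicate 2 (-0.42) or 3 (-0.40). Ccnd1 shares 818 bases with Oraov1, which was at -0.18 (adjusted p = 0.312) in shRad21_2. Reads from shared bases cannot be assigned without strand, and Cdk6, Cdkn2a, Cdkn2b, Cdkn2c and Cdkn1b share none with a gene of the table. Cdk6 shares 110 bases with the antisense gene Gm17590 and Ccnd2 shares 372 with the antisense gene Gm43126. Neither antisense gene was found in the count table, so its own level is not known here.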

How the data were processed

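RNA of primary mouse neural stem cells was sequenced in 9 libraries, with total counts of 34780003 to 46644607 per library. The authors deposited whole-number counts per gene for 24503 genes, of which 6715 were 0 in all libraries. Per the submitters' processing notes, FastQC, cutadapt, Trim Galore, Bowtie2 and RSEM were used with genome build mm10. No version, annotation or strand setting was given in the sources used here, and RSEM shares reads between alike genes by estimate. Genes were filtered with filterByExpr, which left 13560, scaled by TMM and tested with edgeR 4.0.16 (R 4.3.3) in 1 quasi-likelihood fit of all libraries with a mean per group. A gene was called at a Benjamini-Hochberg adjusted p under 0.05, and the SE was derived from the F statistic. CPM used totals scaled by TMM, and 3 counts, the limit that a count of 0 allows, correspond to 0.0664 to 0.0880 CPM. Ratios of summed counts carry exact 95% intervals that cover counting error only. The fits were also run on simulated counts with known changes. Those counts were drawn independently for each library, without the close pairs seen here, so they give no error rate for these calls. Alternatives were DESeq2 1.42.0, limma-voom 3.58.1, other scalings and filters, fits of the 2 groups compared, a replicate block, sums of close pairs and each library left out.

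The 10 genes, the pathway lists, the named genes and the marker lists were chosen with earlier results of these data known. Named were the 10 genes, Rad21 and a stated set from each pathway list whatever it did. Named too were genes that share exon bases with the 10, and the 2 genes with the highest r to each. The nearest tested genes on each side were all counted, but only those called in shRad21_2 against shNT were named. Genes outside that rule (Ets1, Id1, Cul1, Lin9, Mybl2, Foxm1, Mcm7, Cdt1, Rrm2, Bub1 and Aurkb) were named after their values were seen, and the alternatives for the pathway lists and for genes outside the 10 were added after seeing the data. Positions and merged exon lengths came from GENCODE vM21, and promoters from RefSeq (GRCm38.p6). Same-numbered libraries of shRad21_1 and shNT deviated together from their group means (r = 0.242, 0.116 and 0.117 over genes), which meets the rule used for taking numbers as pairs. The crossed pairs of replicates 2 and 3 had higher r (0.160 and 0.154), so the values do not tell which of these libraries belong together. The block changed no call of the 10 genes in that comparison.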

Additional observations from a re-analysis of the deposited data

How the results depend on the processing

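Over 750 alternatives of the fold changes of the 10 genes and 4 comparisons, 675 kept their side of the threshold, 60 lost a call and 15 gained one. In these, 0 called values changed sign. Some values called in neither fit did change sign. Ccnd1 in shRad21_1 against shNT was at -0.0011 with every library and at 0.06 without shRad21_1 replicate 2. Rad21 kept its calls in all. With the close pairs summed, 5 of the 10 genes were called in shRad21_2 against shNT (8 as reported), 0 in shRad21_1 against shNT (3), 2 between the hairpins (5) and 2 for the mean of both hairpins (6); that setting has fewer samples. Leaving out single libraries gave 5 to 9, 1 to 3, 4 to 7 and 3 to 7. With the replicate number as a block, the counts were 8, 3, 6 and 6, and over all genes 6066, 1436, 3643 and 4717. For shRad21_2 with shNT, r was 0.0644 to 0.0833 between same-numbered libraries and -0.063 to -0.013 between the others. For shRad21_2 with shRad21_1, r was 0.0174 to 0.0886 between same-numbered libraries and -0.076 to 0.064 between the others. These values are small, and the labels do not say whether equal numbers mark pairs. The block gained Ccnd3 between the hairpins and raised the proliferation markers in shRad21_2 to 5 (3 as reported). Over all genes, the counts with close pairs summed were 3707 (5917 as reported) in shRad21_2, 130 (1331) in shRad21_1, 1270 (3563) between the hairpins and 2033 (4528) for the mean; DESeq2 gave 2042 in shRad21_1, and the fit of the 2 groups compared 2233 between the hairpins.

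In shRad21_2, close pairs summed left 1 of the cyclin E and CDK2 genes (2 as reported), 1 of the MuvB and DREAM genes (3) and 0 proliferation markers; leaving out both first libraries gave 4 cyclin E and CDK2 genes, 11 S phase targets (4) and 7 proliferation markers. Single libraries left out gave 1 to 4, 1 to 3, 3 to 8 and 1 to 6 for cyclin E and CDK2, MuvB and DREAM, S phase and proliferation. In shRad21_1, close pairs summed left 0 of the E2F and DP factors (2), 0 of the cyclin E and CDK2 genes (2) and 0 of the regulators (2); library totals left 1 E2F and DP factor, DESeq2 called 2 CDK inhibitors (0), and leaving out both first libraries called 1 CDK inhibitor and 1 S phase target (0). Single libraries left out gave 0 to 1 CDK inhibitors, 0 to 2 E2F and DP factors, 0 to 2 cyclin E and CDK2 genes and 1 to 3 regulators. The cause was not tested for these changes. The fit of the 2 groups compared gives no value for the mean of both hairpins. Depth limits Cdk6, with 3 counts in each of 2 shRad21_2 libraries.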
